A study of Mus musculus with 12 samples.

Results

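The genes described here encode the nuclear subunits of the mitochondrial respiratory chain and ATP synthase. They were taken by name as the protein-coding rows whose gene name began with Nduf, Uqcr, Cox4 to Cox8 or Atp5, or was one of Sdha to Sdhd. The rule found 77 rows among 22306 loci, of which 12218 were protein-coding. By respiratory complex they were 7 core and 26 accessory subunits of complex I, 3 subunits of complex II, 7 of complex III, 12 of complex IV and 13 of complex V, together 68 subunits. The other members were 7 assembly factors of complex I named Ndufaf, and Atp5s and Atp5sl, which carry an Atp5 name without being subunits of the enzyme. Ndufa4 was counted with complex IV, where the protein is now placed, and so was the supercomplex factor Cox7a2l. Of the 77 rows, 76 held 1 gene name and 1 held the names of Atp5j and the overlapping gene Jam2.

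Hippocampal poly-A RNA of C57BL/6 mice was sequenced 3 days after 10 µg of a small interfering RNA (siRNA) had been given through the nose. There were 3 groups of 4 libraries, labelled siScramble for a control sequence, siHdac4 for the histone deacetylase Hdac4 and siBdnf for the neurotrophin Bdnf. All groups thus received an siRNA by the same route, and no untreated library was among them. Age, sex and whether a library stands for 1 animal are not in the labels, so each p-value rests on spread among libraries that may be only technical. Values are FPKM, fragments scaled to transcript length and to library size, so levels can be set side by side between genes only roughly. Some loci did not match the span of their gene, and values shifted with transcript length between libraries, as given below. The tables give no read totals, and the depth behind a value is not known here.

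Oxidative phosphorylation passes electrons from NADH through complex I, or from succinate through complex II, to ubiquinone, on through complex III and cytochrome c to complex IV, where oxygen is reduced. Complexes I, III and IV pump protons across the inner mitochondrial membrane, and complex V uses the return flow to make ATP. Apart from complex II the complexes combine nuclear and mitochondrial gene products, and neurons rely on them heavily for ion pumping and synaptic transmission.

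Neither targeted gene passed the threshold of the comparisons in the libraries named for it. Hdac4 was at 45.9, 31.5, 40.6 and 38.6 FPKM in siScramble and at 34.0, 48.2, 39.6 and 42.3 FPKM in siHdac4. Bdnf was at 5.33, 5.51, 5.14 and 5.50 FPKM in siScramble and at 5.19, 4.84, 5.29 and 5.43 FPKM in siBdnf. The means were 39.1 ± 5.94 and 41.0 ± 5.93 FPKM for Hdac4 and 5.37 ± 0.174 and 5.19 ± 0.255 FPKM for Bdnf. Both pairs of groups overlapped, with limma adjusted p of 0.863 and 0.906, so a group name stands for the siRNA given and not for a measured knockdown. The 10 neuron markers all passed the filter on low values described with the comparisons, and summed to between 1710.1 and 2275 FPKM. Markers of choroid plexus and ependyma, 16 genes of which 13 passed the filter and none was at 0 through a group, summed to 887 and 2279 FPKM in siScramble libraries 1 and 3 and to between 21.4 and 105 FPKM in the other 10. In bulk tissue, fewer cells of a type and less RNA per cell cannot be told apart.

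The subunit transcripts were among the abundant ones of the tissue. The median member stood at 54.6 FPKM over the 12 libraries, against 11.2 FPKM for the protein-coding loci tested, which placed it at percentile 91.1 of them. All 77 members passed the filter and none was at 0 in any library. There were 23 members above 100 FPKM and 10 below 10 FPKM. Among the members, the highest of complex I was Ndufb10 (457 FPKM), an accessory subunit. In complex II it was Sdhd (59.0 FPKM), a membrane anchor, and in complex III Uqcrh (103 FPKM), the hinge protein. In complex IV it was Cox6b1 (468 FPKM), a subunit on the intermembrane side, and in complex V Atp5b (459 FPKM), the catalytic beta subunit. Within complex I, transcript levels ran from 457 FPKM for Ndufb10 down to 1.75 FPKM for Ndufb4, a name picked out after its level was seen. The locus of Ndufb4, chr16:37646370-37649228, did not reach the annotated start, which lies within chr16:37654319-37654618 on the minus strand. Its level may therefore not stand for the whole transcript. Subunit genes often have processed pseudogenes, and the sources used here do not give how shared reads were assigned, so levels between genes are uncertain to that degree.

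The tables cover the system unevenly. Of 13 mitochondrially encoded subunits only mt-Nd1 had a row, and it was at 0 in every library. Sdha, the flavoprotein of complex II, appeared only in a locus merged with Pdcd6, with means of 122 ± 12.04 FPKM for siScramble (SD, n = 4, as in all groups below), 133 ± 6.43 for siHdac4 and 120.1 ± 5.78 for siBdnf. Together 8 such merged loci held a subunit name and were not members. The locus of Sdha stood above Sdhd, and that of Mterf3 and Uqcrb, at 150 ± 12.6 FPKM in siScramble, above Uqcrh. Over the 8 loci the median log2 change against siScramble was 0.11 for siHdac4, with 7 of 8 above 0. It was -0.02 for siBdnf, with 3 of 8 above 0.

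Paralogues of the same subunit, those of the Atp5g and Cox6a names, differed widely in level, while Cox7a2 and the related Cox7a2l were more alike in siScramble. Atp5g1, Atp5g2 and Atp5g3 all encode the membrane c subunit of ATP synthase, and Atp5g3 gave 63.0% ± 4.57 of their summed FPKM in siScramble, Atp5g1 gave 34.0% ± 2.84 and Atp5g2 3.03% ± 3.18. In siHdac4 the shares were 61.5% ± 3.65, 37.5% ± 3.93 and 1.04% ± 0.349, and in siBdnf 67.3% ± 1.62, 30.8% ± 1.47 and 1.93% ± 1.18. The order Atp5g3, Atp5g1, Atp5g2 was thus the same in each group mean, and the lowest and highest libraries of siHdac4 and siBdnf did not overlap for Atp5g1 (33.3% to 42.8% against 29.5% to 32.6%) or for Atp5g3 (56.4% to 65.2% against 65.2% to 69.0%, at 65.16 and 65.20 where they are closest). Of the complex IV pair, Cox6a1 made up 98.4% to 98.6% of the sum in the 3 group means and the heart and muscle form Cox6a2 the remainder. Cox7a2 and the related Cox7a2l were at 53.8 ± 20.9 and 68.5 ± 8.29 FPKM in siScramble. For Cox4i1 and Cox7b, at 378 and 347 FPKM over the 12 libraries, the paralogues Cox4i2 and Cox7b2 had no row of their own.

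Subunit genes of different complexes are known to share promoter motifs, among them those read by nuclear respiratory factor 1 (NRF1), by ETS factors such as GA-binding protein, and by YY1. Windows of 300 bases around each annotated start (250 before and 50 after, RefSeq, GRCm38.p6) were searched, and 65 members matched a promoter entry by name or synonym. A gene with more than 1 annotated start, as 6 members had, was counted where any of its windows held the motif. The NRF1 motif (GCGCA, any base, GCGC) was found on either strand in 17 of the 65 members, or 26.2%, against 5.19% of 27025 genes. The ETS motif CCGGAAG was in 15, or 23.1%, against 9.93%, and the YY1 motif AANATGGCG in 10, or 15.4%, against 2.76%. The 27025 were all genes with a promoter entry, whether or not tested here, so they are not matched to the members in type or level. A match describes letters in this window and is not a measured site. Printed next are the 200 bases before the start of the highest member of complexes II, III and IV (Sdhd, Uqcrh and Cox6b1), of Cox6a1, whose change in siHdac4 had the other sign from that of Cox6b1, and of the 3 c-subunit genes, in the gene's own direction, with the motifs in capitals.
Sdhd, chr9:50603850-50604049, minus strand: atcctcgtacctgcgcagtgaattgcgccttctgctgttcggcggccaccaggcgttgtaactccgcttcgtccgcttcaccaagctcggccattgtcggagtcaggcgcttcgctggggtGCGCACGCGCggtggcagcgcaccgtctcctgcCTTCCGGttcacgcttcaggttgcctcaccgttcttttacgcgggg
Uqcrh, chr4:116075071-116075270, minus strand: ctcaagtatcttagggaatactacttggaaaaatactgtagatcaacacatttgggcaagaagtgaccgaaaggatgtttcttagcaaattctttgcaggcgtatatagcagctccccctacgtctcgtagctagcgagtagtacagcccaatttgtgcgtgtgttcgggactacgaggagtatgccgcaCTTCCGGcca
Cox6b1, chr7:30626115-30626314, minus strand: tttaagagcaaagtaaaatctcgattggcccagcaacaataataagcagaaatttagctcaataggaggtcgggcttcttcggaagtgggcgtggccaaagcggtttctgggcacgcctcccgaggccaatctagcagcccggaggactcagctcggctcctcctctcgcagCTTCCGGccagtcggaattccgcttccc
Cox6a1, chr5:115348959-115349158, minus strand: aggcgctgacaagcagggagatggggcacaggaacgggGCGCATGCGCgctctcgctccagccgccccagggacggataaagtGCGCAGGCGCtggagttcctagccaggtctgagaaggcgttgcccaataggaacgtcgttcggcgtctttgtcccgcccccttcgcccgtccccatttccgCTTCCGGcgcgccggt
Atp5g1, chr11:96075632-96075831, minus strand: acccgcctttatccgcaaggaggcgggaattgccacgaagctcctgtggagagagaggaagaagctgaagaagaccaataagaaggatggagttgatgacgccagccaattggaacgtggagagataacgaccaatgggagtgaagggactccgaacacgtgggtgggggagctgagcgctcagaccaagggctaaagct
Atp5g3, chr2:73911327-73911526, minus strand: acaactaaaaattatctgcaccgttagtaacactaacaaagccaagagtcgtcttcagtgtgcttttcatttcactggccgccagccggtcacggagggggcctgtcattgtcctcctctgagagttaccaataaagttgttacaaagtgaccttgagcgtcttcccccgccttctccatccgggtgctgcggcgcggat
Atp5g2, chr15:102671048-102671247, minus strand: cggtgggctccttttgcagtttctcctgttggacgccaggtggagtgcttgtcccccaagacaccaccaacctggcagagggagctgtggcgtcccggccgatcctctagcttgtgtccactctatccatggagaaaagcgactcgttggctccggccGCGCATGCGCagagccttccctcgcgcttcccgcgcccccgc
The Sdhd stretch held 1 NRF1 motif and 1 ETS motif, here read as CTTCCGG on the opposite strand, and those of Uqcrh and Cox6b1 held 1 ETS motif each close to the start. Cox6a1 held 2 NRF1 motifs and 1 ETS motif. Among the c-subunit genes the printed stretch of Atp5g2 held an NRF1 motif, while those of the more abundant Atp5g1 and Atp5g3 held none of the 3 motifs. For Atp5g3 an NRF1 motif lay just after the start.

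Before the groups are compared, the libraries themselves set the scale. For each member the deviation of log2(FPKM + 1) from its mean over 12 libraries was taken, and the median over the 77 was 0.07, -0.03, -0.13 and -0.11 in siScramble libraries 1 to 4. It was 0.03, 0.12, 0.18 and 0.02 in siHdac4 and 0.02, -0.06, -0.02 and -0.06 in siBdnf. All 4 siHdac4 libraries lay above 0, but siScramble library 1 lay above siHdac4 libraries 1 and 4, so the groups overlapped. The highest of the 12 values fell in a siHdac4 library for 45 members, 23 of them in library 3 and 15 in library 2. The lowest fell in a siScramble library for 53 members, 16 in library 2, 15 in library 3 and 17 in library 4. Library 1 of siScramble exceeded both libraries 3 and 4 for 49 members, or 49 of 77, while 36.3% of protein-coding loci tested did so.

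**Figure D1:**
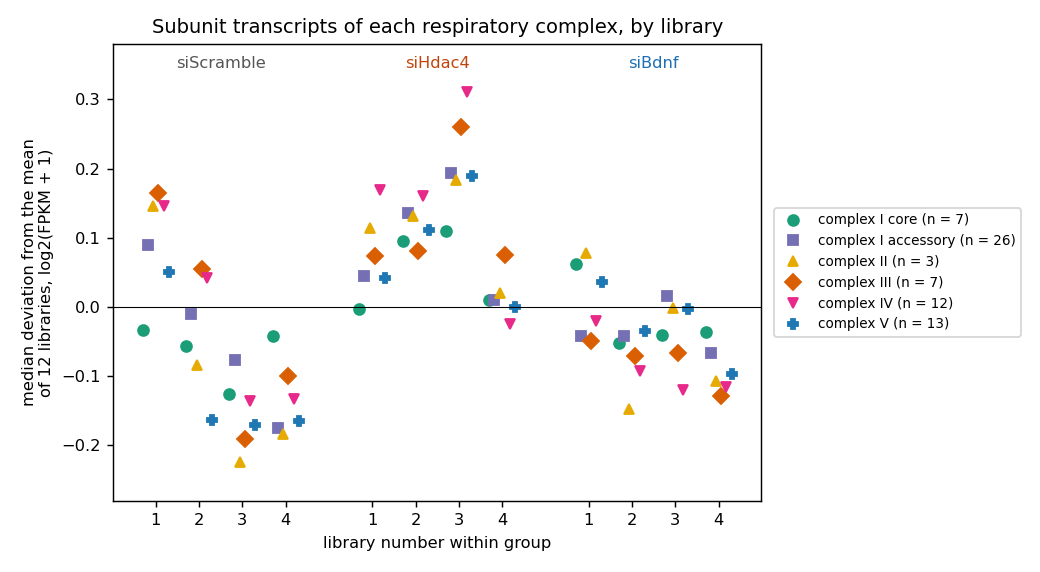
Median deviation of the subunits of each respiratory complex from their mean over the 12 libraries (vertical axis, log2(FPKM + 1) units) in each library (horizontal axis, libraries 1 to 4 of the 3 groups), 1 symbol per complex. All complexes are above 0 in siHdac4 libraries 2 and 3, complex IV reaching 0.31 in library 3, and below 0 in siScramble libraries 3 and 4, while siScramble library 1 is above 0 for every complex but the complex I core.

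The complexes differed in how much they varied within a group. The median within-group SD on the log2 scale was 0.09 for the 7 core subunits of complex I, which carry the flavin and iron-sulfur clusters, and 0.17 for its 26 accessory subunits. It was 0.13 for complex II, 0.17 for III, 0.19 for IV and 0.20 for V, against 0.14 for the protein-coding loci tested. Ndufs1, the largest iron-sulfur subunit, had the smallest SD of all members, 0.05, and Atp5g2, at about 1 FPKM, the largest, 0.62. Cytosolic ribosomal proteins had a median of 0.20.

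The comparison of siHdac4 with siScramble asks which subunit transcripts differed after the Hdac4 siRNA. No member passed the threshold, a limma p below 0.05 after adjustment over the 18387 loci averaging 1 FPKM or more, and 0.261% of all those loci did. By size, 60 of 77 members had a log2 change above 0 and the median change was 0.14, beside 0.00 for the protein-coding loci and -0.01 for all loci tested. At an unadjusted p under 0.05 there were 18 members higher and 0 lower, against 4.51% and 5.63% of all loci. In either direction the count was 41 without siScramble library 1, where 19.8% of all loci had such a p, and 8 without siScramble library 3, where 6.55% did. It was 9 without siScramble library 4 (7.85% of loci) and 10 without siHdac4 library 3 (6.85%). The median was 0.09 for the complex I core, 0.15 for its accessory subunits, 0.14 for the Ndufaf factors, 0.17 for complex II, 0.15 for III, 0.20 for IV and 0.14 for V. Every class but the pair Atp5s and Atp5sl had a median above 0. The counts depended on siScramble library 1: without it 5 members passed, all higher in siHdac4, where 1.35% of loci did, and with libraries 3 and 4 left out instead, 0 passed and the median was 0.09. By median deviation of the members, library 1 was the highest of siScramble (0.07) and libraries 3 and 4 the lowest (-0.13 and -0.11). The direction in which the changes moved was thus largely set by the values left out, and these fits add no separate support. With siScramble libraries 1 and 3, which hold the choroid plexus signal, both left out, the median was 0.18 and 61 members were above 0. Because 1 was added to each FPKM before the log2 was taken, changes of low genes come out too small.

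In the core of complex I, Ndufs1 was at 66.5, 68.4, 65.2 and 68.5 FPKM in siScramble and at 72.2, 75.96, 76.9 and 72.8 FPKM in siHdac4. The groups did not overlap, and the difference was small, 0.15 on the log2 scale (SE 0.05, limma adjusted p 0.433). Ndufs8, an iron-sulfur subunit next to the ubiquinone site, was at 38.2, 31.97, 31.0 and 31.9 FPKM in siScramble and 35.03, 39.7, 45.7 and 40.3 in siHdac4. Only siScramble library 1 reached into the siHdac4 range, and the change was 0.26 (SE 0.09, adjusted p 0.456). The locus of Ndufs1 lay at chr1:63143658-63176826 and that of Ndufs8 at chr19:3908864-3912894, as deposited. Ndufv1, the core subunit that binds NADH, had a change of 0.12 (95% interval -0.02 to 0.27).

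Among the accessory subunits of complex I, Ndufb11, in the membrane arm and on the X chromosome (X:20615297-20650938), had the largest change of any member. Its locus ran well past the annotated start of the gene, which lies within X:20617570-20617869 on the minus strand. Whether reads from neighbouring sequence are part of its value was not tested. Ndufb11 was at 48.0, 26.7, 19.0 and 19.6 FPKM in siScramble and at 41.5, 50.7, 51.3 and 33.2 FPKM in siHdac4. The change was 0.70 (SE 0.25, adjusted p 0.458), with siScramble library 1 inside the siHdac4 range and the other 3 below it. Without that library the change was 0.98 and the adjusted p 0.0286, the smallest of the 5 members that then passed, and with siScramble libraries 3 and 4 left out instead they were 0.27 and 0.895. Ndufa2, a small subunit at low level, was at 5.14 ± 1.17 FPKM in siScramble and 6.70 ± 0.728 in siHdac4, a change of 0.34 (SE 0.12, adjusted p 0.458) that was 0.14 with siScramble libraries 3 and 4 left out. Ndufb10 stood on the other side, at 407, 666, 436 and 434 FPKM in siScramble and 286, 373, 426 and 505 in siHdac4, a change of -0.29 (SE 0.19, adjusted p 0.587). Its groups overlapped widely, and siScramble library 2 was far above the rest of its group.

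The Ndufaf factors help build complex I and are not part of the finished enzyme. For 3 of the 7 the siHdac4 and siScramble libraries did not overlap, Ndufaf1, Ndufaf4 and Ndufaf5, which are named here because of that result. Ndufaf5 was at 30.4, 25.8, 27.9 and 30.4 FPKM in siScramble and 31.8, 39.5, 32.6 and 32.04 in siHdac4, a change of 0.24 (SE 0.09, adjusted p 0.468). The changes of Ndufaf1 and Ndufaf4 were 0.20 and 0.19, both with SE 0.07 and adjusted p 0.458. Over all members, 6 were without overlap and higher in siHdac4, these 3 with Ndufs1, Uqcrc2 and Atp5c1, and 0 were without overlap and lower, where 1.71% and 2.04% of all loci were.

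Complex II had 3 members. Sdhb, its iron-sulfur subunit, was at 67.5, 52.3, 41.9 and 45.9 FPKM in siScramble and at 66.3, 60.9, 70.0 and 58.9 FPKM in siHdac4. The change was 0.32 (SE 0.13, adjusted p 0.486), and siScramble library 1 was again level with siHdac4. The membrane anchors Sdhc and Sdhd had changes of 0.11 (95% interval -0.02 to 0.24) and 0.17 (-0.02 to 0.36). With siScramble libraries 3 and 4 left out, the change of Sdhb was 0.10 and that of Sdhd 0.02, and without library 3 alone that of Sdhd was 0.11.

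In complex III, Uqcrc2, a large core protein on the matrix side, was at 68.1, 64.8, 67.6 and 66.6 FPKM in siScramble and at 78.2, 69.2, 79.1 and 73.5 FPKM in siHdac4 (0.16, SE 0.05, adjusted p 0.433). Uqcrh was at 141, 86.3, 74.6 and 68.6 FPKM in siScramble and at 112, 152, 140.1 and 105 FPKM in siHdac4 (0.50, SE 0.20, adjusted p 0.475). The first gene had tight groups that did not overlap, and the second a larger change with siScramble library 1 among the highest of the 8 values. Uqcrh was also the 1 member with an FDR under 0.05 in the authors' deposited table, at a log2 fold change of 0.46 and an FDR of 0.00739, where 0.991% of the 22306 loci had one. Without siScramble library 1 the limma change of Uqcrh was 0.72 and its adjusted p 0.0378, and with siScramble libraries 3 and 4 left out they were 0.19 and 0.921.

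In complex IV, Cox6b1 (chr7:30616971-30626205) was at 534, 399.6, 361 and 349.7 FPKM in siScramble and at 541, 579, 621 and 452 FPKM in siHdac4. The change was 0.43 (SE 0.14, adjusted p 0.445), with siScramble library 1 inside the siHdac4 range. Without that library it was 0.56 (adjusted p 0.0400), and with siScramble libraries 3 and 4 left out 0.24 (adjusted p 0.821). Cox6c, a small membrane subunit, was at 403, 192, 299 and 278 FPKM in siScramble and at 397, 508, 496 and 317 FPKM in siHdac4 (0.57, SE 0.21, adjusted p 0.458), and its change was 0.87 with siScramble libraries 1 and 3 left out. The complex was not uniform. Cox6a1 had a change of -0.19 (95% interval -0.46 to 0.08), and Ndufa4 one of 0.00 (-0.41 to 0.41).

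In complex V, Atp5c1, the gamma subunit that turns inside the catalytic head, had the smallest p of all members. It was at 166, 146, 133 and 154 FPKM in siScramble and at 166, 196, 186 and 171 FPKM in siHdac4, without overlap but nearly touching (0.26, SE 0.08, adjusted p 0.415). Atp5e, the epsilon subunit, was at 61.5, 40.7, 41.6 and 39.2 FPKM in siScramble and at 51.1, 76.8, 65.3 and 53.2 FPKM in siHdac4 (0.43, SE 0.17, adjusted p 0.472), a change of 0.27 with siScramble libraries 3 and 4 left out. The most abundant, Atp5b, had a change of 0.08 (95% interval -0.10 to 0.25). Atp5g1 was at 39.5, 22.6, 16.1 and 19.9 FPKM in siScramble and at 28.8, 44.4, 36.1 and 28.2 FPKM in siHdac4 (0.53, SE 0.23, adjusted p 0.486). Its paralogue Atp5g3 had a change of 0.36 (SE 0.20, adjusted p 0.531), with siScramble library 1 the highest of the 8 values at 68.3 FPKM. Without that library the changes of Atp5g1 and Atp5g3 were 0.77 (adjusted p 0.0406) and 0.58 (adjusted p 0.0601), and with siScramble libraries 3 and 4 left out they were 0.17 and -0.04. Atp5g2 lay between 0.302 and 3.77 FPKM in siScramble and had a change of -0.29 (95% interval -1.13 to 0.56).

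**Figure D2:**
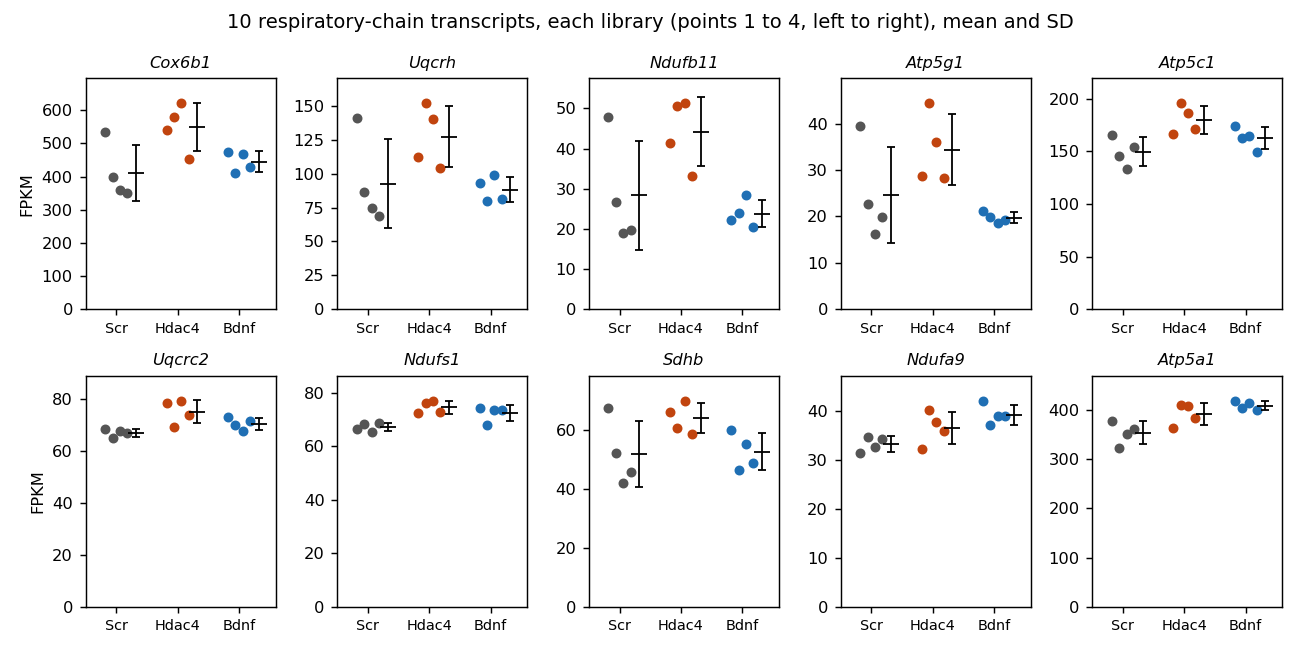
FPKM (vertical axes, from 0) of 10 members in each library, points 1 to 4 from left to right for siScramble (Scr, grey), siHdac4 (red) and siBdnf (blue), with the group mean and SD as a bar beside them. The first siScramble point of Cox6b1, Uqcrh, Ndufb11, Atp5g1 and Sdhb sits level with siHdac4 while the other 3 sit lower, and Uqcrc2 and Ndufs1 show tight groups.

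The comparison of siBdnf with siScramble gave a different picture for the members. None passed the threshold, where 0.277% of loci did, and 40 of 77 had a change above 0, with a median of 0.01 beside 0.00 for the protein-coding loci. At an unadjusted p under 0.05 there were 6 members higher and 2 lower, against 5.72% and 3.13% of all loci. Their sum of 8 became 4 without siBdnf library 1, where 7.97% of loci had such a p, and 5 without siBdnf library 4, where 6.02% did. The 2 comparisons share the siScramble libraries. Of the complexes, III had 1 of 7 and IV had 5 of 12 above 0, with medians of -0.03 and -0.07, and V had 8 of 13, with a median of 0.03. The Ndufaf factors had 5 of 7 above 0 and a median of 0.09. In the authors' deposited table no member had an FDR under 0.05, and 0.632% of loci did. With siScramble libraries 3 and 4 left out, 2 members passed, Uqcr11 (-0.39) and Atp5h (0.52), where 1.51% of loci did.

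Ndufa9, an accessory subunit beside the ubiquinone site, had the smallest p of this comparison. It was at 31.4, 34.8, 32.6 and 34.3 FPKM in siScramble and at 42.1, 37.1, 38.9 and 38.9 FPKM in siBdnf, without overlap (0.23, SE 0.07, adjusted p 0.417). Atp5a1, the alpha subunit of the catalytic head, was at 378, 323, 352 and 362 FPKM in siScramble and at 418, 403, 414 and 399 FPKM in siBdnf, also without overlap (0.21, SE 0.07, adjusted p 0.453). In all 6 members were without overlap and higher in siBdnf and 0 lower, where 3.28% and 1.81% of loci were. On the other side, Ndufs3, a core subunit of complex I, was at 24.6 ± 2.35 FPKM in siScramble and 21.2 ± 1.13 in siBdnf (-0.20, SE 0.07, adjusted p 0.462). Cox5b, a peripheral subunit of complex IV, was at 268 ± 13.2 and 229 ± 28.02 FPKM (-0.23, SE 0.09, adjusted p 0.522). In both the groups overlapped. Uqcrq of complex III, at 5.04 ± 1.14 and 4.08 ± 0.410 FPKM, had a change of -0.23 (95% interval -0.54 to 0.07), and Sdhc one of 0.10 (-0.03 to 0.24). Without siScramble library 3 that of Uqcrq was -0.12, and without siScramble library 2 that of Sdhc was 0.06.

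The direct comparison of siHdac4 with siBdnf does not use the siScramble libraries as a reference, though all 12 libraries share the estimate of the spread. No member passed, where 0.0272% of loci did. With only these 2 groups in the fit, Ndufb11 passed with an adjusted p of 0.0499, where 0.827% of loci did. The median change was 0.12, with 55 of 77 above 0, beside 0.00 for the protein-coding loci and -0.03 for all loci. Cytosolic ribosomal proteins had a median of 0.14 in the same comparison, with 56 of 74 above 0. At an unadjusted p under 0.05 there were 21 members higher in siHdac4 and 1 lower, against 5.14% and 10.4% of all loci. Their sum of 22 became 14, 13 and 11 without siHdac4 library 1, 2 or 3, where 13.3%, 10.6% and 10.6% of loci had such a p. It became 14 and 11 without siBdnf library 2 or 4, where 12.4% and 9.75% did. The libraries of the 2 groups did not overlap for 16 members that were higher in siHdac4 and for 1 that was lower, Atp5h, where 4.51% and 8.45% of loci were without overlap. By class the median was 0.04 for the complex I core, 0.13 for its accessory subunits, 0.17 for complex II, 0.21 for III, 0.23 for IV and 0.12 for V.

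Ndufs8 had the smallest p, with 29.6 to 34.0 FPKM in siBdnf below all siHdac4 values (0.35, SE 0.09, adjusted p 0.212). Atp5e was at 48.2, 34.4, 34.6 and 36.3 FPKM in siBdnf, all below the lowest siHdac4 value of 51.1 FPKM (0.66, SE 0.17, adjusted p 0.212). Ndufb11 was at 22.1, 24.0, 28.4 and 20.6 FPKM in siBdnf, again below every siHdac4 library (0.86, SE 0.25, adjusted p 0.223). All 4 siBdnf libraries of these 3 genes were thus below the siHdac4 group. Atp5g1 was at 21.2, 19.9, 18.5 and 19.3 FPKM in siBdnf, below the lowest siHdac4 value (0.75, SE 0.23, adjusted p 0.226). Cox7a2, a small subunit of complex IV, was at 53.4, 43.0, 31.3 and 30.8 FPKM in siBdnf and at 65.6, 84.2, 75.3 and 55.9 FPKM in siHdac4 (0.83, SE 0.26, adjusted p 0.226). Its highest siBdnf library and lowest siHdac4 library were close. Cox5b had a change of 0.30 (SE 0.09, adjusted p 0.226), Uqcrh one of 0.51 (SE 0.20, adjusted p 0.271) and Sdhb one of 0.28 (SE 0.13, adjusted p 0.338). Atp5sl, at 192 ± 21.4 FPKM in siBdnf and 119 ± 47.2 in siHdac4, was the 1 member lower at an unadjusted p under 0.05 (-0.74, SE 0.27, adjusted p 0.252).

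**Figure D3:**
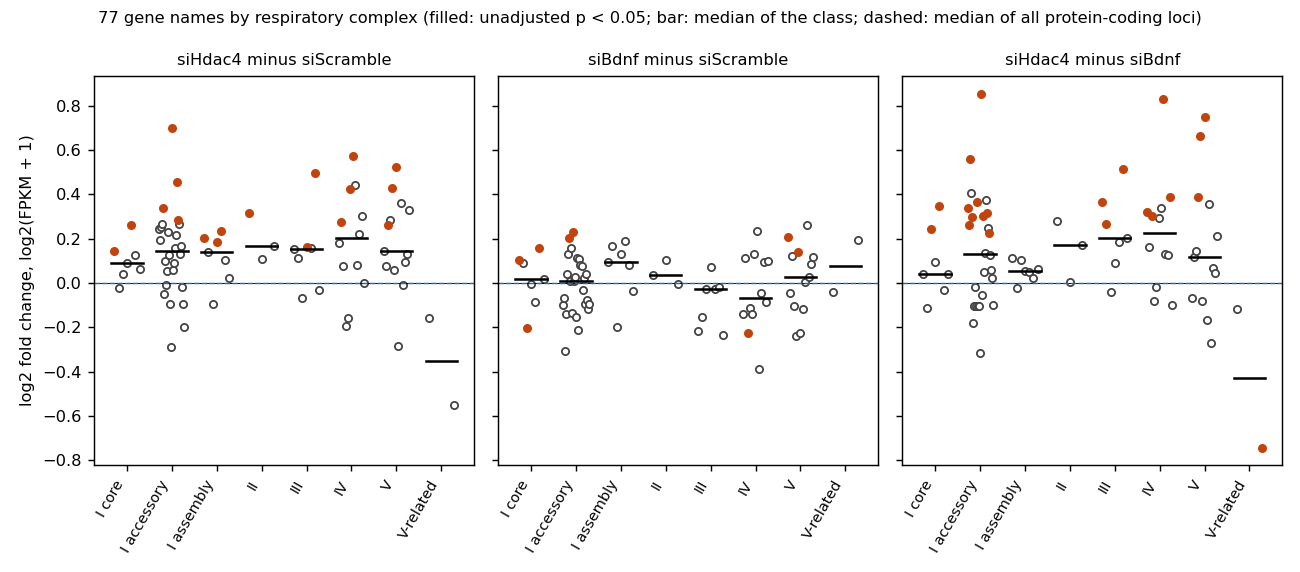
Log2 fold change on the log2(FPKM + 1) scale (vertical axis) of each of the 77 members by respiratory complex (horizontal axis), for the 3 comparisons. Filled points had an unadjusted p under 0.05, bars are class medians and the dashed line is the median of the protein-coding loci; the bars lie above it for every class but Atp5s and Atp5sl in both comparisons of siHdac4, and run from -0.07 for complex IV to 0.09 for the assembly factors in siBdnf against siScramble.

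Subunit transcripts are short. Their median length was 820.5 bases, taken from the GENCODE transcript of longest coding sequence for 76 members, against 2902 bases for the protein-coding loci tested. For siHdac4 against siScramble the median change was 0.15 in the 45 members under 1000 bases, 0.11 in the 26 from 1000 up to 2000 and 0.15 in the 5 longer ones. The other protein-coding loci of the same lengths had medians of 0.04, 0.03 and -0.01. For siHdac4 against siBdnf the members' medians were 0.25, 0.08 and 0.04, and 19 of the 21 members higher at an unadjusted p under 0.05 were under 1000 bases. The other protein-coding loci had medians of 0.03, 0.02 and -0.01 there, and 87 of the 805 under 1000 bases were higher at such a p. Over 10608 protein-coding loci of each library, longer transcripts went with the deviation of a locus at a Spearman correlation of -0.09, 0.01, 0.16 and 0.18 across siScramble libraries 1 to 4, and between -0.17 and -0.06 in siHdac4, lowest in library 3. In siBdnf it lay between -0.06 and 0.10. Libraries 3 and 4 of siScramble, where the members were lowest, thus had the most positive values and siHdac4 library 3, where they were highest, the most negative one. Among the 76 members themselves the correlation was -0.15, -0.06, 0.08 and 0.22 in siScramble libraries 1 to 4. It was -0.28, -0.04, -0.24 and -0.08 in siHdac4. In siBdnf it lay between 0.11 and 0.28, above the values over all protein-coding loci in each library. With each library corrected for transcript length and GC content, the members' median was 0.11 for siHdac4 against siScramble, with 58 of 76 above 0, and 0.10 for siHdac4 against siBdnf, with 53 of 76 above 0.

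**Figure D4:**
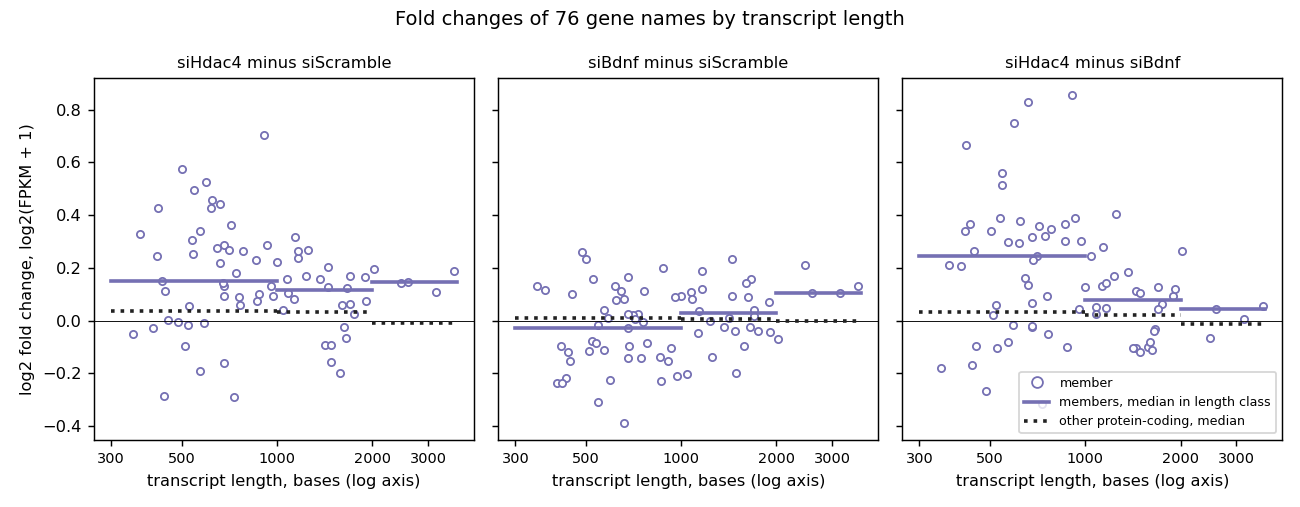
Log2 fold change of 76 members (circles, vertical axis) against transcript length in bases (horizontal log axis) for the 3 comparisons, with the median of the members (solid) and of other protein-coding loci (dotted) in 3 length classes. The members' median lies above that of the other loci in all 3 classes for siHdac4 against siScramble, and furthest above it under 1000 bases for siHdac4 against siBdnf.

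Genes around the chain were taken from lists by role. Of 7 subunits and partners named outside the rule 4 passed the filter, and all 4 were above 0 in siHdac4 against siScramble, with a median of 0.19. They were 2010107E04Rik and Usmg5, small proteins that copurify with ATP synthase, the ATP synthase inhibitor Atpif1 and cytochrome c1, Cyc1. 2010107E04Rik was at 211, 199, 215 and 161 FPKM in siHdac4 and at 133, 135, 156 and 144 FPKM in siBdnf, without overlap (0.46, SE 0.11, adjusted p 0.212). Usmg5 had a change of 0.52 against siScramble (SE 0.28, adjusted p 0.522), with siScramble library 1 at 179.9 FPKM above the other 3.

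For ATP and phosphate transport across the mitochondrial membranes, 8 of 9 genes were above 0 in both siHdac4 and siBdnf against siScramble, with medians of 0.18 and 0.09 and none past the threshold. The adenine nucleotide carrier Slc25a4 was at 742, 525, 561 and 629 FPKM in siScramble and at 702, 890.0, 755 and 681 in siHdac4 (0.30, SE 0.12, adjusted p 0.468). Mitochondrial creatine kinase, Ckmt1, averaged 121 ± 7.63 FPKM with siScramble, 137 ± 3.10 with siHdac4 and 141 ± 7.29 with siBdnf. Its changes against siScramble were 0.18 (adjusted p 0.433) and 0.22 (adjusted p 0.364), both with SE 0.06. The outer membrane channel Vdac2 was at 138 ± 10.2, 154 ± 4.45 and 158 ± 3.26 FPKM, with changes of 0.16 and 0.19.

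Other mitochondrial lists had smaller medians in siHdac4 against siScramble, and none held a gene past the threshold. The 17 genes of the tricarboxylic acid cycle had a median of 0.05, with 10 above 0. The 29 of 46 assembly factors outside the name rule that passed the filter had a median of 0.06, with 20 above 0, the 16 of 20 genes of electron carriers and their synthesis 0.07, with 10 above 0, and the 16 of 20 of cristae organisation and import 0.05, with 11 above 0. Regulators of mitochondrial biogenesis stood on the other side, with a median of -0.09 and 4 of the 16 that passed the filter, of 18, above 0. Among them Tfb1m, a methyltransferase of mitochondrial ribosomal RNA, was at 6.57, 9.58, 4.17 and 5.44 FPKM in siScramble and at 3.79, 2.67, 1.98 and 1.11 FPKM in siHdac4, without overlap (-1.15, SE 0.31, adjusted p 0.339). Polrmt, the mitochondrial RNA polymerase, had a change of -0.27 (SE 0.11, adjusted p 0.472).

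Ribosomal protein transcripts, of the cytosol and of the mitochondrion, were set beside the members. The 74 cytosolic ones had a median change of 0.15 in siHdac4 against siScramble, with 56 above 0, and the 62 mitochondrial ones 0.09, with 50 above 0. Their median deviations were 0.14, -0.10, -0.14 and -0.12 in siScramble libraries 1 to 4 and 0.01, 0.15, 0.14 and 0.02 in siHdac4 for the cytosolic list. Library 1 of siScramble was again the high one of its group, and siHdac4 libraries 2 and 3 were above libraries 1 and 4. In siHdac4 against siBdnf the cytosolic list had a median of 0.14, with 56 of 74 above 0. The mitochondrial list had one of 0.07, with 44 of 62 above 0, beside 0.12 for the members. No difference between the members and these lists was tested.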

How the data were processed

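The authors deposited 2 tables of 22306 loci with an FPKM value for each library, one per siRNA group beside siScramble, and the 4 siScramble columns were identical in both. Cufflinks, Cuffdiff and TopHat2 2.0.9 are the tools listed, per the submitters' processing notes. The sources used here do not give the genome build, the annotation or the scaling between libraries. Of the 77 members, 76 overlapped the gene of the same name in GENCODE on GRCm38, and coordinates are printed as deposited. An overlap can be partial, and the loci of Ndufb4 and Ndufab1, for example, did not reach the annotated start. The locus of Ndufb11 ran well past it instead. The p-value and FDR columns and the log2 fold changes of the authors appear only in sentences that name the authors' deposited table.

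Since FPKM is no count, the test was that of limma (version 3.58.1, R 4.3.3), applied to log2(FPKM + 1) of the 18387 loci averaging 1 FPKM or more, its prior variance following expression level. All 3 groups entered 1 fit without covariates, and p-values were adjusted by Benjamini-Hochberg over all loci tested. Every adjusted p in the text is from limma, in this fit unless a setting is named beside it. The fit was tested on simulated data with independent noise at each locus. The simulated libraries held no shifts shared between loci, so that test does not cover the shared shifts described above. Lists are described by counts and medians with no test. The members and lists were chosen with earlier results of these data known.

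Named with their values were, by complex, the 2 members of smallest p in siHdac4 against siScramble and the 1 of smallest p in each other comparison, the most abundant, the Sdh genes and the paralogue families, and up to 3 genes of smallest p in other lists. Further names were chosen after their values were seen, among them Ndufv1, the Ndufaf genes, Ndufb4, Ndufb7, Uqcr11, Atp5h, Atp5sl, Atpif1, Cyc1 and the change of Cox7a2 against siBdnf. Lengths were known for 95.9% of protein-coding loci tested. The correction for length and GC content was added after the data were seen. Python 3.11.15 with numpy 2.4.6, pandas 2.3.3 and matplotlib 3.10.9 made the summaries and plots.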

Additional observations from a re-analysis of the deposited data

Results flagged for a closer look

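In each group of 4, a library was marked where its gap to the nearest other value took up more of the whole range than Dixon's 95% limit, which chance exceeds in about 1 of 20 groups. Of 105 groups checked, over 29 members and the levels of the complexes, 8 were marked. Atp5e was marked in siScramble (0.892), where library 1 was high at 61.5 FPKM, and in siBdnf (0.861), where library 1 was high at 48.2 FPKM. Ndufs8 was marked in siScramble (0.870), where library 1 was high at 38.2 FPKM, and Ndufb10 in siScramble (0.889), where library 2 was high at 666 FPKM. Cox7a2l was marked in siScramble (0.873), where library 3 was low at 56.1 FPKM, and Ndufs1 in siBdnf (0.837), where library 2 was low at 67.9 FPKM. Sdhc was marked in siHdac4 (0.885), where library 2 was high at 59.8 FPKM, and Atp5g2 in siHdac4 (0.943), where library 1 was high at 1.32 FPKM. The high libraries of Atp5e and Ndufs8 in siScramble were the same one, library 1.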

How the results depend on the processing

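The settings tried were another pseudocount, other filters, quantile or median scaling, a robust prior variance, protein-coding loci alone, the correction for length and GC content, and leaving out libraries. The median for siHdac4 was above 0 under each of them against either group. Against siScramble, the count for siHdac4 ran from 0 to 5 when 1 library was left out, 5 without siScramble library 1 (Ndufb11, Uqcrh, Cox6b1, Atp5g1 and Ndufb7), and the median from 0.12 to 0.17. For siBdnf the count was 2 with siScramble libraries 3 and 4 left out and 0 without any single library, and the median ran from -0.02 to 0.04, and was -0.04 under quantile normalization and -0.06 with siScramble libraries 3 and 4 left out, so it lay on either side of 0. For siHdac4 against siBdnf the count was 1 with only the 2 groups in the fit and 0 without any single library, and the median ran from 0.08 to 0.13 and was 0.19 under quantile normalization. The cause of these shifts was not tested. Of the changes named by rank of p none changed sign, but with siScramble libraries 3 and 4 left out those of Ndufb11, Ndufa2, Sdhb, Sdhd, Uqcrh, Cox6b1 and Atp5e against siScramble were smaller by over 1.5 times, and that of Atp5g3, which was -0.04, changed sign. In siBdnf the change of Sdhc was 0.06 under quantile normalization and 0.17 with siScramble libraries 1 and 3 left out. Uqcrq had no value with a filter of 5 FPKM. Replicate numbers were not taken as pairs, since the labels do not say that equal numbers mark a shared batch. Of 12 pairs of the same number, 4 had a correlation above 0.1 (range -0.08 to 0.24). For the pairs of number 4 it was 0.24, 0.19 and 0.13, and pairs of different numbers ran from -0.38 to 0.29. Whether a number marks a batch was not tested. With the replicate number as a block, 0 members passed in each comparison and the medians were 0.14, 0.01 and 0.12. Read depth is unknown, so precision rests on 4 libraries a group.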
